A study of Homo sapiens with 12 samples.

Results

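The genes described here are 10 transcription factor genes of the myeloid and blood progenitor lineages, MYB, GATA2, RUNX1, NFE2, SPI1, CEBPA, CEBPE, GFI1, CEBPB and CEBPD, picked by gene symbol from the 42157 genes of the raw count table. The set was chosen with earlier results of these data known, so member shares given beside those of all genes are descriptions, not tests. All 10 were among the 13696 genes with enough reads to be tested. The cells were HL-60, a human leukemia line long kept in culture and a common model of acute myeloid leukemia (AML), so that every value comes from 1 line. They received both drugs (ML-792+DNR), 1 µM daunorubicin alone (DNR), 0.5 µM ML-792 alone, or the solvent dimethyl sulfoxide (DMSO), for 3 h in each case. DNR is an anthracycline that slips between DNA bases and poisons topoisomerase II, and ML-792 blocks the enzyme that starts the attachment of SUMO, a ubiquitin-like modifier of many chromatin proteins. There were 3 libraries of polyadenylated RNA per group, which the study's methods describe as independent experiments.

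Blood cell identity rests on a small set of transcription factors that bind to shared enhancers and control each other's genes. GATA2, RUNX1 and MYB maintain stem and progenitor cells, PU.1 (the product of SPI1) and C/EBPα direct progenitors to the granulocyte and monocyte lineages, and GFI1 and C/EBPε act as granulocytes mature. C/EBPβ and C/EBPδ are related factors known from inflammatory and emergency responses, and NF-E2 p45 (the product of NFE2) is known from megakaryocytes and red cell precursors. In AML some of these genes are often mutated, fused or expressed out of place, and their levels are part of what holds leukemic cells in an immature state.

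Promoter sequences of the members are shown because 8 of the 10 mRNAs were lower with DNR, and because these windows are the part of the genes where transcription starts. The RefSeq promoter table (GRCh38.p14) holds windows of 300 bases, 250 before and 50 from an annotated start, for 7 of the 10 genes (11 windows), and each was placed on GRCh37 by an exact match. The windows given here are 1 of the 2 of GATA2 and those of MYB and CEBPA, 3 of the genes that fell. With them is 1 of the 2 windows of CEBPB, which did not fall. Capitals mark, on either strand, the GC box (GGGCGG), the CCAAT box (CCAAT) and the TATA box (TATAAA), and no capital run holds more than 1 match. All sequences read 5′ to 3′ along the gene's own strand.
GATA2 (chr3:128211995-128212294, minus strand): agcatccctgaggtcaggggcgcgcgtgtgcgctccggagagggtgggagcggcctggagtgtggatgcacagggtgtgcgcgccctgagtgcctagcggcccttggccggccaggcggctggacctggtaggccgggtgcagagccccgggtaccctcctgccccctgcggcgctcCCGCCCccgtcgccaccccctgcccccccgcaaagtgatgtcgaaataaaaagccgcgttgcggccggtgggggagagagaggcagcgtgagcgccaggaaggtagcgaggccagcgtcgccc
MYB (chr6:135502196-135502495, plus strand): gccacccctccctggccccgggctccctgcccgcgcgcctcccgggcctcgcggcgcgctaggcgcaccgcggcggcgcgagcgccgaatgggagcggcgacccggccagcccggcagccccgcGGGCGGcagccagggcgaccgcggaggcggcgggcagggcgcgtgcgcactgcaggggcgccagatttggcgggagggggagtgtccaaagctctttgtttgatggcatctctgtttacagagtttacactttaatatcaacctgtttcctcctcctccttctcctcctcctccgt
CEBPA (chr19:33793391-33793690, minus strand): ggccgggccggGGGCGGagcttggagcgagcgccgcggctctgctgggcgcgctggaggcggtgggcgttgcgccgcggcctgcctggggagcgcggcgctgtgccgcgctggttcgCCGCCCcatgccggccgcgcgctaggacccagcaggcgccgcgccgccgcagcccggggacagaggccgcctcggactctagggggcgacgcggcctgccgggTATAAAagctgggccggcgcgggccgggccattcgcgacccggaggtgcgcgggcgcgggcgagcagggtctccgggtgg
CEBPB (chr20:48807117-48807416, plus strand): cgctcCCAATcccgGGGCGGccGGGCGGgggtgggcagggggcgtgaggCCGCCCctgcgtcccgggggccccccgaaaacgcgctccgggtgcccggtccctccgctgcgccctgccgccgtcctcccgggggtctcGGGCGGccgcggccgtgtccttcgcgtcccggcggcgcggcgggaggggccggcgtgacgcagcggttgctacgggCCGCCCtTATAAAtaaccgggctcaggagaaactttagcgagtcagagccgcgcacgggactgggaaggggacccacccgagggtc

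These windows were rich in G and C. The CEBPA window was 80.7% GC with 50 CpG dinucleotides, against medians of 58.7% and 14 over 34796 promoters of the same length, and the GATA2, MYB and CEBPB windows shown were 72.3%, 71.0% and 76.7% GC. At the other end, the CEBPE window held 57.7% GC and 2 CpG. A GC box was present in 9 of the 11 windows, against 44.9% of all promoters. It was found in all windows of CEBPA, CEBPB, MYB, RUNX1 and GFI1, and in the GATA2 window shown but not in the other. The 2 CEBPB windows share bases, so the windows counted are not all separate stretches. The TATA box occurred in the CEBPA window, 30 bases before the start, and in the CEBPB window shown, 29 bases before it, against 11.6% of promoters. The NF-kB-like pattern of GGGA, 4 free bases and CC, which can share bases with a GC box, matched 6 windows of 5 genes (25.6% of promoters), and AGATAA, the letters GATA factors bind, matched none (10.4% of promoters). Such matches describe letters only.

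Reads assigned to genes ranged from 28647950 to 46451650 per library. Mitochondrially encoded transcripts took 4.01% to 6.37% of them in the 4 libraries of replicate 1 and 2.49% to 3.48% in the other 8. Marker mRNAs of promyelocytes, 7 genes with MPO among them, summed to between 10531 and 13516 CPM (reads scaled to a common library size of 1e6) in each library. Nearly all of this was MPO, with a mean of 11264 CPM in DMSO cells. The other markers ranged there from 0.675 CPM for ELANE to 235 CPM for CTSG. Lymphocyte markers summed to at most 13.7 CPM, stromal and epithelial ones to 3.11, erythroid ones to 1.31 and megakaryocyte ones to 0.404 CPM, and no library had a read of 2 of the 8 lymphocyte, 3 of the 7 stromal and epithelial, 5 of the 8 erythroid and 2 of the 4 megakaryocyte genes. With bulk RNA, fewer cells expressing a gene and less mRNA per cell cannot be told apart.

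The 10 mRNAs differed widely in level. Divided by transcript length, DMSO levels were highest for CEBPE, MYB and SPI1, with 115, 108 and 104 CPM per kb and overlapping libraries. CEBPA followed with 55.4 CPM per kb, then GFI1, GATA2 and RUNX1 with 19.2, 18.5 and 17.2 CPM per kb, where each neighbour overlapped the next. NFE2 (2.83 CPM per kb) and CEBPB (2.21 CPM per kb) overlapped, and CEBPD was lowest at 0.633 CPM per kb. By group means, RUNX1 had rank 5 of 10 in ML-792+DNR and DNR cells and rank 7 in ML-792 and DMSO cells. CEBPE was first except in ML-792 cells, where it had rank 3. GATA2 had rank 7 of 10 in ML-792+DNR cells (8.0 CPM per kb) and in DNR cells (3.90), rank 5 in ML-792 cells (35.7) and rank 6 in DMSO cells. NFE2 was last of the 10 in ML-792+DNR cells (0.518 CPM per kb) and DNR cells (0.276), with rank 8 in ML-792 cells (7.03) and in DMSO cells.

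**Figure D1:**
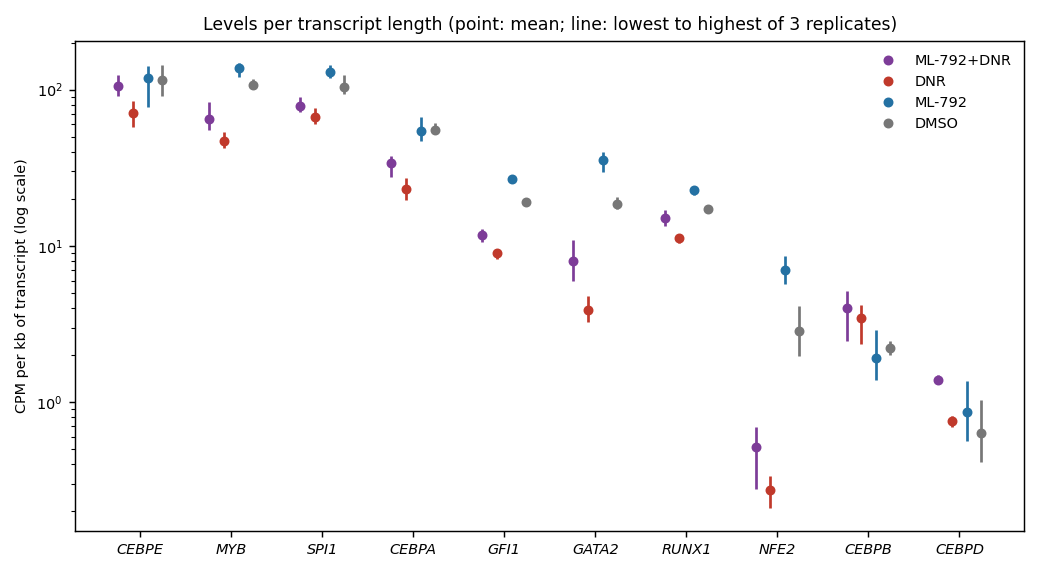
Levels of the 10 mRNAs per transcript length (CPM per kb, log axis) in ML-792+DNR, DNR, ML-792 and DMSO cells. Points are means and lines run from the lowest to the highest of 3 libraries. Genes are ordered by their DMSO level, from CEBPE (115 CPM per kb) to CEBPD (0.633 CPM per kb), and NFE2 has the widest range across groups, 0.276 to 7.03 CPM per kb in means.

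The first comparison asks what DNR alone does to these mRNAs within 3 h. NFE2, GATA2, CEBPA, MYB and GFI1 fell by more than 2-fold, SPI1, RUNX1 and CEBPE were lower by a smaller step, and CEBPB and CEBPD were not lower. A gene was called here when edgeR's adjusted p was below 0.05 and the change at least 2-fold. By this rule 5 of the 10 members fell and 0 rose, where 2.91% of all tested genes fell and 4.07% rose (6.98% in all). Without the fold minimum 8 of 10 were lower, against 15.7% of genes. In the same 8 genes all DNR libraries lay below all DMSO libraries, as in 23.6% of genes. The median log2 fold change was −0.90 over the members and 0.01 over all genes.

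GATA2, a zinc finger factor of stem and progenitor cells (6 exons, chr3:128198270-128212044), had 11.1, 16.2 and 12.3 CPM in DNR cells, against 58.2, 69.9 and 59.7 CPM in DMSO cells. The highest DNR library was thus far below the lowest DMSO library. Its log2 fold change was −2.25 ± 0.21 (SE, adjusted p = 6.14e-06), which left 21.1% of the DMSO level, and 43 of the 13696 tested genes had a lower value. MYB, which drives proliferation of immature cells (16 exons, chr6:135502446-135540311), had 156, 196 and 167 CPM in DNR cells, against 429, 372 and 387 CPM in DMSO cells. No DNR library came near the DMSO range, and the log2 fold change was −1.20 ± 0.15 (adjusted p = 6.12e-05). RUNX1, the DNA-binding subunit of core-binding factor and a common target of leukemic fusions (chr21:36160098-37376965), had 68.8, 69.6 and 62.2 CPM in DNR cells, against 108, 100.3 and 99.1 CPM in DMSO cells. These libraries were also apart, but the step was smaller, a log2 fold change of −0.62 ± 0.09 (adjusted p = 0.000246), short of 2-fold.

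NFE2, a basic leucine zipper factor that pairs with small MAF proteins (3 exons, chr12:54685895-54694799), had 0.346, 0.558 and 0.468 CPM in DNR cells, against 3.97, 3.28 and 6.83 CPM in DMSO cells. The DNR values rest on 12, 18 and 15 reads and the DMSO values on 184, 106 and 268 reads. This was the largest change among the members, with 9.75% of the DMSO level left (log2 −3.36 ± 0.37, adjusted p = 2.43e-05), and 11 of all tested genes had a lower value.

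Among the granulocytic factors, CEBPA and GFI1 fell most. CEBPA encodes C/EBPα, which granulocyte formation requires, and lies in a single exon (chr19:33790840-33793440). It had 51.4, 58.7 and 71.1 CPM in DNR cells, against 134, 139 and 159 CPM in DMSO cells (log2 −1.26 ± 0.15, adjusted p = 5.9e-05). GFI1, a repressor that limits monocyte genes in granulocyte precursors (chr1:92938600-92952482), had 37.5, 43.0 and 42.0 CPM in DNR cells, against 92.7, 86.1 and 83.5 CPM in DMSO cells. The gap between the groups was many times their spread, and with a log2 fold change of −1.10 ± 0.09 its adjusted p was the smallest of the 10 (1.41e-06). SPI1, which encodes PU.1, the ETS factor of monocytes and granulocytes (chr11:47376411-47400098), had 82.4, 105 and 86.0 CPM in DNR cells, against 129.6, 169.7 and 131 CPM in DMSO cells. The libraries did not overlap, and 63.6% of the DMSO level was left (log2 −0.65 ± 0.13, adjusted p = 0.00212). CEBPE, a factor of late granulocyte maturation (chr14:23586245-23589465), had 68.9, 101 and 82.0 CPM in DNR cells, against 108, 170.1 and 131 CPM in DMSO cells. The gap between the groups was narrow (log2 −0.70 ± 0.22, adjusted p = 0.0278), and the adjusted p was above 0.05 when DMSO replicate 2 (0.116), DMSO replicate 3 (0.0532), DNR replicate 1 (0.129) or DNR replicate 3 (0.0848) was left out. A fit that also had a term for the replicate number gave CEBPE a log2 fold change of −0.70 ± 0.10 (adjusted p = 0.000276).

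CEBPB and CEBPD, both single-exon genes of the inflammatory C/EBP proteins, did not share this direction. CEBPB (chr20:48807367-48809205) had 7.75, 4.31 and 7.02 CPM in DNR cells, against 3.69, 3.99 and 4.51 CPM in DMSO cells. The groups overlapped through DNR replicate 2, and the log2 fold change was 0.65 (95% interval −0.03 to 1.33, adjusted p = 0.142). With a term for the replicate number the log2 fold change of CEBPB was 0.63 (adjusted p = 0.0361). CEBPD (chr8:48649475-48650726) was near the detection limit, with 0.951, 0.869 and 1.03 CPM in DNR cells and 0.518, 1.30 and 0.561 CPM in DMSO cells. Its interval ran from −0.53 to 1.12 on the log2 scale (adjusted p = 0.608), so that neither a rise nor a fall of moderate size was detectable at 22 to 42 reads per library. Leaving out any 1 of the 12 libraries, or all of replicate 1 with its higher mitochondrial share, left 5 members called under DNR.

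**Figure D2:**
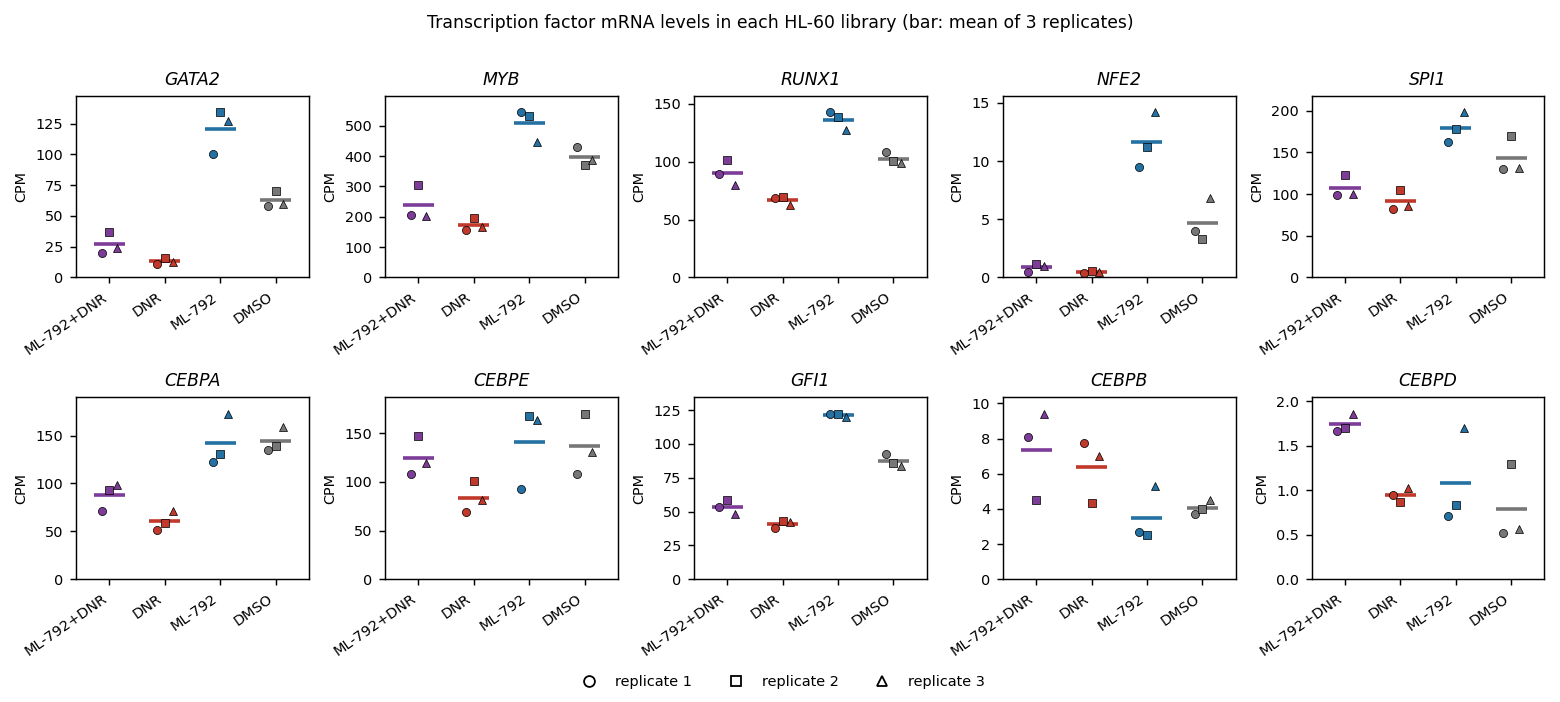
CPM of each of the 10 mRNAs in every library (circles, squares and triangles are replicates 1, 2 and 3; bars are means) in ML-792+DNR, DNR, ML-792 and DMSO cells, each panel on its own linear axis from 0. The 3 DNR libraries lie below the 3 DMSO libraries for all panels but those of CEBPB and CEBPD, and the GATA2 and NFE2 panels show the ML-792 libraries above the DMSO libraries.

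The comparison of ML-792 with DMSO, which shares the DMSO libraries with the one above, asks what ML-792 does by itself. SUMO attachment was not measured in these libraries. No member passed the 2-fold rule in edgeR (0 of 10, where 0.0803% of all genes did, 11 genes), although 6 had an unadjusted p below 0.05 (5.09% of genes), and DESeq2 and limma voom each called 1 member, NFE2. The estimates leaned upward, with 8 of 10 positive and a median log2 of 0.38, against −0.01 over all genes. In 5 members (GATA2, MYB, RUNX1, NFE2 and GFI1) every ML-792 library lay above every DMSO library, as in 4.51% of genes. GFI1 passed without the fold minimum, 1 of 10 members against 0.183% of genes, with 122, 122 and 120.2 CPM in ML-792 cells (log2 0.47 ± 0.08 against DMSO, adjusted p = 0.033). This was not firm, with an adjusted p of 0.0687 with library size only. It was 0.0607 to 0.199 without any 1 of DMSO or ML-792 replicates 1, 2 or 3 or without DNR replicate 3. No other member had replicates as close together in any group.

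NFE2 reached 9.51, 11.2 and 14.2 CPM in ML-792 cells, each above the highest DMSO library (6.83 CPM). The log2 fold change of 1.31 (95% interval 0.69 to 1.92) had an adjusted p of 0.109. With the replicate number as a block, which takes out what same-numbered libraries share, it was called (log2 1.32, adjusted p = 0.00782), and 25 genes were called in all in place of 11. GATA2 had 100.4, 134 and 127 CPM in ML-792 cells, with a log2 fold change of 0.95 (interval 0.53 to 1.36, adjusted p = 0.074, and 0.0015 with the block). The adjusted p of GATA2 was 0.000824 in DESeq2 and 0.0287 in limma voom, short of 2-fold in each. It reached 0.406 with 1 library left out. RUNX1 had 143, 139 and 127 CPM (log2 0.41, adjusted p = 0.109, and 0.0114 with the block). The adjusted p of RUNX1 was 0.0107 in DESeq2 and reached 0.454 with 1 library left out. The block fit thus placed GATA2, RUNX1, GFI1 and NFE2 below an adjusted p of 0.05, 4 of 10 members against 0.759% of genes.

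MYB with 545, 533 and 446 CPM (log2 0.36) and SPI1 with 162, 178 and 198 CPM (log2 0.32) in ML-792 cells had adjusted p-values of 0.817 and 0.803. The ML-792 level of CEBPA, 122, 131 and 173 CPM, was spread around that of DMSO cells (log2 −0.02, interval −0.35 to 0.30). CEBPE was scattered, with 92.5, 168 and 164 CPM in ML-792 cells (log2 0.05, interval −0.42 to 0.52). CEBPB had 2.68, 2.54 and 5.30 CPM and CEBPD 0.709, 0.835 and 1.71 CPM in ML-792 cells, both overlapping DMSO.

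In DNR-treated cells the addition of ML-792 left all 10 estimates positive, with a median log2 of 0.50, against 0.0015 over all genes. This comparison has the DNR libraries as its reference, the same libraries that form the DNR group above, so the 2 sets of values are not independent. GATA2 was the 1 member called of 10, where 0.0949% of all genes rose and 0.197% were called. In 7 members every ML-792+DNR library lay above every DNR library, as in 8.89% of genes. GATA2 had 20.0, 36.9 and 24.2 CPM in ML-792+DNR cells, against the 11.1 to 16.2 CPM of DNR cells (log2 1.04 ± 0.20, adjusted p = 0.0379). This call was not firm. Its adjusted p ranged from 0.0508 to 0.186 when any of DMSO replicates 1, 2 or 3, DNR replicates 1 or 3, ML-792 replicate 2 or ML-792+DNR replicates 2 or 3 was left out, its log2 fold change was 0.75 without ML-792+DNR replicate 2, and the adjusted p was 0.00144 with the replicate block.

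RUNX1 had 89.7, 102 and 79.7 CPM in ML-792+DNR cells, all above DNR (log2 0.43 ± 0.09, adjusted p = 0.0464). That was not firm either, with 0.0539 in limma voom and 0.00528 with the block. Its adjusted p was 0.0654 to 0.214 without any 1 of DMSO replicates 1, 2 or 3 or DNR replicates 1, 2 or 3. The same range held without ML-792 replicate 2 or ML-792+DNR replicates 1 or 2. GFI1 had 53.7, 58.8 and 48.4 CPM, likewise above all DNR libraries (log2 0.39 ± 0.08, adjusted p = 0.0502). The adjusted p of GFI1 was 0.00268 in DESeq2, 0.0171 with the block, and 0.0518 to 0.18 with 1 library left out. CEBPA, which ML-792 alone had left near its DMSO level, had 71.7, 92.9 and 98.2 CPM in ML-792+DNR cells, against 51.4 to 71.1 CPM in DNR cells. Its log2 fold change of 0.54 ± 0.15 had an adjusted p of 0.144, of 0.0312 in DESeq2 and of 0.00334 with the block. With 1 library left out it was 0.0788 to 0.353. CEBPE had 108, 147 and 119 CPM (log2 0.57, adjusted p = 0.28, and 0.0115 with the block). In the block fit 5 members (GATA2, CEBPA, RUNX1, CEBPE and GFI1) were higher without a fold minimum, against 1.65% of genes, and 2 members (GATA2 and RUNX1) in the fit without it, against 0.256%. The block raised the number of genes called with the fold minimum to 52, against 27 without it.

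MYB had 205, 305 and 202 CPM in ML-792+DNR cells (log2 0.46 against DNR, adjusted p = 0.194). NFE2 stayed low, with 0.458, 1.15 and 0.964 CPM on 14, 48 and 28 reads (log2 0.93, interval 0.04 to 1.82, adjusted p = 0.36). SPI1 had 99.1, 123 and 99.8 CPM (log2 0.23, adjusted p = 0.491) and overlapped DNR. Of the low members, CEBPD had 1.67, 1.70 and 1.86 CPM, above all DNR libraries (log2 0.87, adjusted p = 0.32), and CEBPB had 8.08, 4.51 and 9.40 CPM (log2 0.20, adjusted p = 0.841).

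The effect of DNR in ML-792-treated cells was read from ML-792+DNR against ML-792. NFE2, GATA2, GFI1 and MYB fell and CEBPB rose, 4 and 1 of 10 members where 2.66% of all genes fell and 3.68% rose (6.34% in all). NFE2 kept 7.52% of its ML-792 level (log2 −3.73 ± 0.34, adjusted p = 9.18e-06), and 1 of the 13696 genes had a lower log2 fold change. GATA2 kept 22.5% (log2 −2.15 ± 0.20, adjusted p = 1.27e-05), GFI1 44.2% (log2 −1.18 ± 0.08, adjusted p = 1.34e-06) and MYB 46.8% (log2 −1.10 ± 0.15, adjusted p = 0.000151). MYB was at −0.99, just under 2-fold, without ML-792+DNR replicate 3. The libraries of 7 members lay entirely below those of ML-792 cells, as in 21.5% of genes, namely these 4 with SPI1 (log2 −0.74), CEBPA (log2 −0.70) and RUNX1 (log2 −0.59).

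CEBPE, lower under DNR alone, had a log2 fold change of −0.18 here (interval −0.65 to 0.29, adjusted p = 0.561). CEBPB had a log2 fold change of 1.06 ± 0.32 (adjusted p = 0.0217), but its libraries overlapped, since ML-792+DNR replicate 2 (4.51 CPM) was below ML-792 replicate 3 (5.30 CPM). The CEBPB call was lost without ML-792 replicate 1 (adjusted p = 0.0828), ML-792 replicate 2 (0.0848), ML-792+DNR replicate 1 (0.0724) or ML-792+DNR replicate 3 (0.0926).

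**Figure D3:**
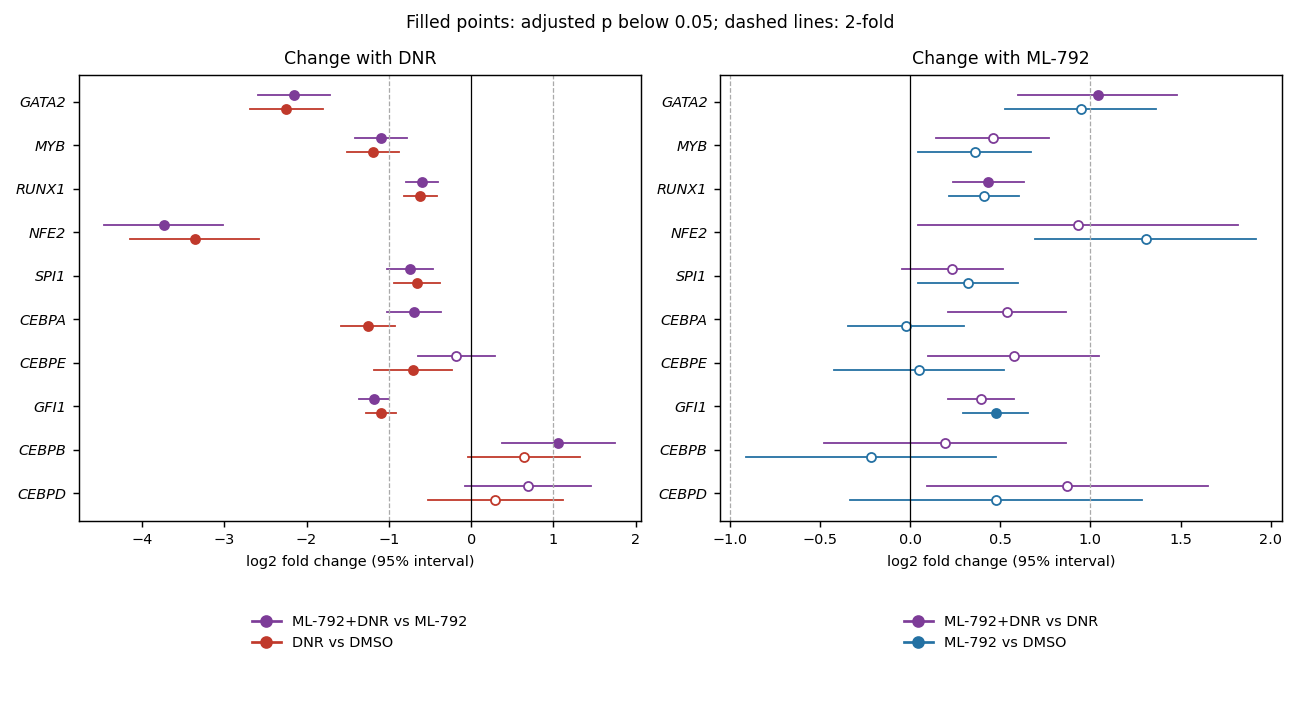
Log2 fold changes of the 10 mRNAs with 95% intervals for DNR (left, in ML-792-treated cells and in DMSO cells) and for ML-792 (right, in DNR-treated cells and in DMSO cells). Filled points have an adjusted p below 0.05 and dashed lines mark 2-fold. Intervals of the pairs overlap for every gene, and on the left NFE2 and GATA2 lie beyond −2 in both pairs.

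Both drugs together, set against DMSO, left 2 members called lower (GATA2 and NFE2) and 1 higher (CEBPD), where 2.56% of all genes fell and 3.93% rose (6.48% in all). GATA2 was at 43.4% of its DMSO level (log2 −1.20 ± 0.20, adjusted p = 0.000562) and NFE2 at 18.6% (log2 −2.43 ± 0.33, adjusted p = 0.000156). MYB, GFI1, CEBPA and SPI1 were below all DMSO libraries with log2 fold changes of −0.74, −0.70, −0.72 and −0.42, and 6 members in all were apart on the low side, as in 24.5% of genes. RUNX1 (log2 −0.18, interval −0.38 to 0.01) and CEBPE (log2 −0.13, interval −0.60 to 0.34) overlapped DMSO. With the replicate block the adjusted p of RUNX1 was 0.0328. CEBPB also overlapped DMSO (log2 0.84, interval 0.16 to 1.52, adjusted p = 0.0523). Its adjusted p was 0.00944 with the block and 0.0229 in DESeq2, short of 2-fold in each. CEBPD, with 51 to 71 reads per library in ML-792+DNR cells and 22 to 42 in DMSO cells, had a log2 fold change of 1.17 ± 0.37 (adjusted p = 0.0239). That call was lost without DMSO replicate 1 (adjusted p = 0.114), DMSO replicate 3 (0.0998), ML-792+DNR replicate 1 (0.0527) or ML-792+DNR replicate 3 (0.0624).

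**Figure D4:**
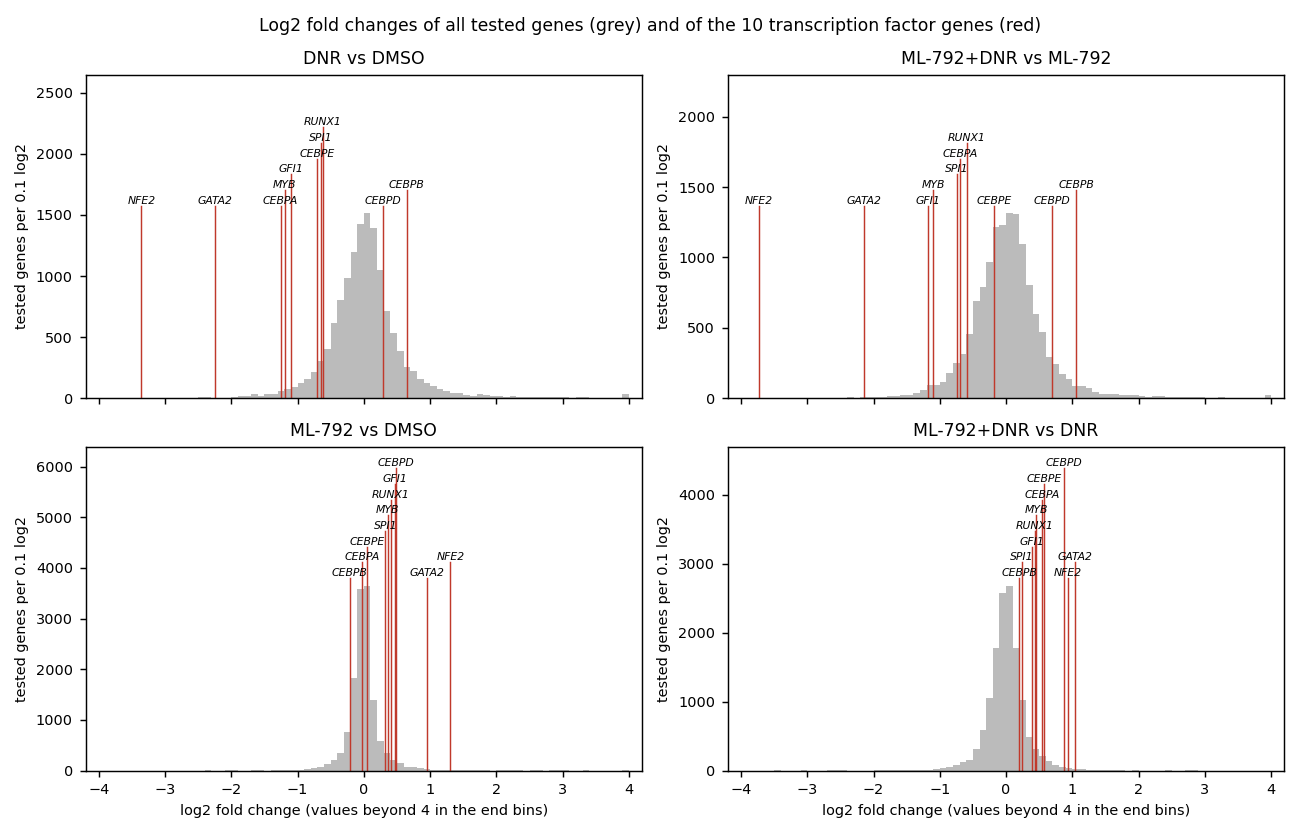
Number of tested genes per 0.1 step of log2 fold change (grey, values beyond 4 in the end bins) with the 10 members as red lines, whose height only makes room for the names, in DNR vs DMSO, ML-792+DNR vs ML-792, ML-792 vs DMSO and ML-792+DNR vs DNR. Members sit mainly left of the centre in the upper panels (medians −0.90 and −0.72) and right of it in the lower panels (medians 0.38 and 0.50).

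Whether the DNR change itself differed between ML-792-treated and DMSO cells was tested as an interaction. No member was called in edgeR, DESeq2 or limma voom (0 of 10, and 0 genes of 13696 in edgeR, 0%), and 1 member had an unadjusted p below 0.05, against 493 of all genes (3.6%). That member was CEBPA, whose fall with DNR was smaller by 0.56 on the log2 scale in ML-792-treated cells (interval 0.10 to 1.02, adjusted p = 0.999). CEBPE had a similar estimate of 0.52 with an interval that includes 0 (−0.14 to 1.19). With the replicate block the spread was smaller, at 0.57 ± 0.10 for CEBPA and 0.55 ± 0.15 for CEBPE (SE). Neither was called there (adjusted p = 0.144 and 0.338). For RUNX1 the difference was 0.02 (interval −0.25 to 0.30), for GFI1 −0.08 (−0.34 to 0.18) and for SPI1 −0.09 (−0.48 to 0.30). The intervals were wider for MYB (0.10, −0.34 to 0.54), GATA2 (0.09, −0.51 to 0.70) and NFE2 (−0.37, −1.48 to 0.73). For CEBPB and CEBPD they spanned −0.55 to 1.38 and −0.73 to 1.52, too wide to read a direction.

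Across the 12 libraries the members that fell with DNR moved closely together, given here as a description, since the points share their treatment groups. Pearson's r of log2 CPM was 0.984 between GATA2 and GFI1, 0.979 between MYB and GFI1 and 0.975 between GATA2 and MYB. CEBPE was less tied to the others (r from 0.591 with NFE2 to 0.768 with SPI1 among the members that were lower with DNR). CEBPB ran opposite to MYB (r = −0.83). Of 9352 other genes with a mean of at least 5 CPM, RUNX2, the bone-forming relative of RUNX1, had the pattern nearest to MYB (r = 0.989) and to GFI1 (r = 0.988), and was among the 3 nearest to GATA2 (r = 0.984) with MOB3A (r = 0.984). WDR89 and MAP3K1 came next for MYB, and ZEB2 and STK17B for GFI1. STK17B, a kinase gene, was nearest to NFE2 (r = 0.984), followed by GPSM2 and TRERF1. DHRS9, ST3GAL6 and NUDT19 were nearest to CEBPA (r = 0.979, 0.975 and 0.974), OXLD1, CCDC189 and PCK2 to CEBPB (r = 0.978, 0.976 and 0.970), and DUSP23, POP4 and VKORC1 to CEBPD (r = 0.961, 0.957 and 0.956).

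Paralogs of the members did not share one direction under DNR. Of 15 listed 11 were tested, and 2 rose and 1 fell, where 4.07% of all genes rose and 2.91% fell (median log2 0.18). MYBL1, the MYB relative of germ cells, had 7.11 ± 0.52 CPM in DNR cells and 1.62 ± 0.17 CPM in DMSO cells (SD, n = 3 each; log2 2.13 ± 0.19 SE). This was opposite to MYB in the same libraries, and ML-792+DNR cells were likewise above DMSO (log2 2.09) and ML-792 cells (log2 2.39). DDIT3, the stress-induced C/EBP relative CHOP, had 50.4 ± 3.06 CPM in DNR cells and 22.4 ± 2.50 CPM in DMSO cells (log2 1.17 ± 0.12). RUNX2 had 24.8 ± 4.95 CPM in DNR cells and 61.2 ± 1.46 CPM in DMSO cells, a log2 fold change of −1.30 ± 0.14, and it fell also in ML-792+DNR against ML-792 cells (log2 −1.30).

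The 19 tested of 21 partners and cofactors held 1 gene that rose and 1 that fell with DNR, where 4.07% of all genes rose and 2.91% fell (median log2 −0.13). MAFF, a small MAF protein of the kind NF-E2 p45 pairs with, rose (log2 1.83 ± 0.14), and LYL1, which binds with GATA2 in progenitors, fell (log2 −1.86 ± 0.40). Both changes were called again in ML-792+DNR against ML-792 cells (log2 1.48 and −1.26), and MAFF also in ML-792+DNR against DMSO cells (log2 1.54). CBFB, the obligate partner of RUNX1, had a log2 fold change of −0.02.

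Other hematopoietic transcription factors leaned in the direction of the members. Of 39 listed 32 were tested, and with DNR 6 fell and 1 rose, 18 being lower without the fold minimum (median log2 −0.47, against 0.01 over all genes). Over all genes 2.91% fell, 4.07% rose and 15.7% were lower without the fold minimum. ERG (log2 −2.74), MYC (log2 −2.41), IKZF1 (log2 −1.66) and HHEX (log2 −1.43) fell most, and the ERG value rests on under 1 CPM in DMSO cells (0.756). IKZF1, the lymphoid and myeloid regulator Ikaros, had 55.7 ± 12.1 CPM in DNR cells and 176 ± 13.5 CPM in DMSO cells (SD, n = 3 each). In ML-792+DNR against ML-792 cells 7 fell, among them MYC (log2 −1.71) and IKZF2 (log2 −1.23), and 2 rose, KLF4 (log2 1.44) and BCL6 (log2 1.38). KLF4 was near the detection limit, with 43 reads over the ML-792+DNR group and 16 over the ML-792 group. Against DMSO cells ML-792+DNR had 3 lower, IKZF1 (log2 −1.62), MEF2D (log2 −1.25) and IKZF2 (log2 −1.08). ML-792 raised 1 in DNR-treated cells, MYC (log2 1.78).

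Genes that these factors are known to switch on in granulocytes and progenitors gave few calls. Of 21 tested (34 listed) 0 were called with DNR in edgeR, where 6.98% of all genes were. Without the fold minimum 3 were lower, against 15.7% of all genes, and 4 had an unadjusted p below 0.05, against 40.5%. These shares are no larger than those of all genes, and the median log2 was −0.0027. Those lower were BCL2, a MYB target and survival gene, with 116 ± 24.9 CPM in DNR cells and 220.2 ± 11.8 CPM in DMSO cells (SD, n = 3 each; log2 −0.92, adjusted p = 0.00199), the surface receptor gene CD33 (log2 −0.49, adjusted p = 0.000586) and the interleukin-6 receptor gene IL6R (log2 −0.56, adjusted p = 0.000573). In all 3 the DNR libraries lay below the DMSO libraries. MPO, a C/EBPα and PU.1 target, had 10322 ± 201 CPM in DNR cells and 11264 ± 593 CPM in DMSO cells (SD, n = 3 each). CSF3R, the receptor of granulocyte colony-stimulating factor, had 13.3 ± 2.15 CPM in DNR cells and 15.3 ± 2.75 CPM in DMSO cells. The 1 call in any comparison was BCL2, which fell in ML-792+DNR against ML-792 cells (log2 −1.32 ± 0.18, adjusted p = 0.000191). Of 10 tested genes for the turnover of C/EBP and MYB proteins 1 fell with DNR, TRIB1 (log2 −1.28 ± 0.11), a pseudokinase that brings C/EBPα to the ligase COP1, and 7 were lower without a fold minimum (median log2 −0.45). Over all genes 2.91% fell and 15.7% were lower without it. TRIB1 fell also in ML-792+DNR against ML-792 cells (log2 −1.19), and GSK3B, a kinase of C/EBP proteins, in ML-792+DNR against DMSO cells (log2 −1.02). With ML-792 alone 0 genes of these 5 lists were called in edgeR, and 2, 4, 9, 5 and 1 of them (in the order given) had an unadjusted p below 0.05. Over all genes these shares were 0.0803% and 5.09%.

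Neighbouring transcripts were examined because reads of overlapping genes may have been split or shared by the counting, whose use of strand is not stated. GATA2-AS1, which overlaps GATA2 on the other strand, had 13.6 ± 1.70 CPM in DNR cells and 19.2 ± 1.05 CPM in DMSO cells (SD, n = 3 each), a smaller change than that of GATA2 (log2 −0.50 ± 0.14, adjusted p = 0.0157). CEBPA-AS1, which lies 323 bases from CEBPA and runs the other way, fell (log2 −1.66 ± 0.41, adjusted p = 0.00844) on 45 reads over the DNR group and 169 over the DMSO group. CEBPB-AS1, which overlaps CEBPB, had 87 reads over the DNR group and 50 over the DMSO group (log2 1.05, adjusted p = 0.148), and rose in ML-792+DNR against ML-792 cells (log2 1.93 ± 0.55, adjusted p = 0.0169). COPZ1, which lies 187 bases from NFE2 on the other strand, and SPIDR, 607 bases from CEBPD on the other strand, had log2 fold changes of 0.08 ± 0.08 and −0.20 ± 0.09 in DNR against DMSO (adjusted p = 0.469 and 0.114). The pseudogenes and the small RNA gene inside RUNX1 had at most 2 reads over any group.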

How the data were processed

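Polyadenylated RNA of HL-60 cells (TruSeq Stranded mRNA libraries, single-end reads) was measured in 12 libraries. The authors aligned the reads to GRCh37 (hg19) with TopHat2 2.1.1, which ran on Bowtie2 2.3.5.1. HTSeq 0.11.1 gave the reads per gene, and the authors' deposited raw counts were the only table used. Picard, DESeq2 and Cufflinks 2.2.1 are named in the submitters' notes as well. A deposited table of normalized values and one with the authors' own fold changes and adjusted p-values were not used. The 5 counter rows of HTSeq (of all records, 26.6% to 29.2% had more than 1 alignment, 3.04% to 3.77% fell in no gene and 2.26% to 2.83% were ambiguous) stayed out of the library sizes. HTSeq's strand setting is not stated, so overlapping and antisense genes are uncertain.

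Of the 42157 genes, 13696 passed filterByExpr (minimum count 10, minimum total 15). The 12 libraries entered one edgeR 4.0.16 quasi-likelihood model (R 4.3.3) with a term for the 4 groups, scaled by TMM (factors 0.954 to 1.04), for 6 comparisons, with Benjamini-Hochberg adjustment over all tested genes. Adjusted p-values in the text are from this test unless another tool is named. A call is an adjusted p below 0.05 with at least 2-fold change. CPM use TMM-scaled library sizes, SE is the log2 fold change over the root of F, and intervals are 95%. With 3 libraries a side the smallest p of an exact permutation test is 0.1, and such tests were left out. P-values set each difference against the spread between these replicates, estimated over the 4 groups and drawn toward that of all tested genes. No library was a copy of another, with a chi-square per gene of 16.9 to 84.4 between replicates. The fit was tested on simulated data.

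The members and lists were chosen with earlier results of these data known. Text values cover the members, up to 4 called genes per list and comparison of largest change, the 3 genes nearest in pattern to each member called in any comparison, and annotated neighbours within 2000 bases. CBFB, MPO, CSF3R, CD33, IL6R, BCL2 in DNR vs DMSO and the IKZF1 and RUNX2 means were named outside this rule, after their values were seen. A gene that the rule on nearest patterns picked is not reported here. Gene positions and transcript lengths are from a GENCODE annotation on GRCh37.

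Replicate numbers were checked as pairing by the correlation, across genes, of deviations from group means. Same-numbered libraries had r from 0.0559 to 0.711 (18 pairs) and others from −0.599 to 0.159 (36 pairs). In DNR vs DMSO (lowest r 0.0841) and the interaction the numbers were not taken as pairs, since a pair was at or below 0.1. The same-numbered DNR and DMSO libraries had r of 0.0841, 0.299 and 0.452, and the highest value of the other pairs was 0.0173. In the other 4 comparisons every pair was above 0.1, and block values are given where they change a call and in some other cases. Some block values are also given for DNR vs DMSO and the interaction. Alternatives were other tools (DESeq2 1.42.0, limma 3.58.1 voom), other scalings (median-of-ratios factors, library size only), other filters (none, or a mean of 1 CPM or more), a replicate block, fits of the compared groups alone, no fold minimum or 1.5-fold, replicates 2 and 3 only, and leaving out each library.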

Additional observations from a re-analysis of the deposited data

How the results depend on the processing

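Counts of members called did not change by more than 1.5 times under 48 of the 65 comparisons of a count with an alternative setting other than leaving out 1 library. With DNR vs DMSO, 5 members were called in every leave-one-out fit (5 to 5), and 8 without a fold minimum or with 1.5-fold. In ML-792+DNR vs ML-792 the count was 3 to 6 with a library left out, 8 without a fold minimum or with 1.5-fold and 3 with replicates 2 and 3 only. In ML-792+DNR vs DMSO it was 2 to 4, 7 without a fold minimum and 6 with 1.5-fold. In ML-792+DNR vs DNR it was 0 to 1, 0 with library size only, limma voom, the groups of the comparison only or replicates 2 and 3 only, and 2 without a fold minimum. In ML-792 vs DMSO it was 0 to 0, and 1 with DESeq2, limma voom, no count filter, the replicate block or no fold minimum, NFE2 in the first 4 (adjusted p = 0.00265, 0.035, 0.000149 and 0.00782, range over alternatives to 0.573) and GFI1 in the last. The interaction gave 0 in all. The cause was not tested. Fold changes of genes not called changed sign in some fits, with log2 ranges over the leave-one-out fits of −0.19 to 0.076 for CEBPA (0.028 with replicates 2 and 3 only), −0.10 to 0.28 for CEBPE and −0.0084 to 1.00 for CEBPD in ML-792 vs DMSO, −0.28 to 0.056 for CEBPE in ML-792+DNR vs DMSO, −0.023 to 0.46 for CEBPB in ML-792+DNR vs DNR, and, in the interaction, −0.20 to 0.27 for GATA2, −0.12 to 0.20 for MYB, −0.070 to 0.11 for RUNX1, −0.22 to 0.022 for SPI1 and −0.12 to 0.89 for CEBPD.

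The replicate block gave 5 members called in DNR vs DMSO, 3 in ML-792+DNR vs DMSO, 1 in ML-792+DNR vs DNR, 5 in ML-792+DNR vs ML-792 and 0 in the interaction, and changed no call other than that of NFE2. As a pairing, it moved all genes called to 25 (11 without it) in ML-792 vs DMSO, to 52 (27) in ML-792+DNR vs DNR and to 1 (0) in the interaction.

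Over all genes, DNR vs DMSO, ML-792+DNR vs DMSO and ML-792+DNR vs ML-792 had 956, 888 and 868 calls, against 606, 545 and 549 with a mean of at least 1 CPM, 568, 496 and 446 with replicates 2 and 3 only, 1999, 2205 and 2072 with 1.5-fold and 4108, 4843 and 4626 without a fold minimum. The 11 calls in ML-792 vs DMSO were 21 with DESeq2, 27 with no count filter, 26 with 1.5-fold, 33 without a fold minimum and 4 with replicates 2 and 3 only, and the 27 in ML-792+DNR vs DNR were 44 with no count filter, 50 with 1.5-fold, 102 without a fold minimum, 8 with the groups of the comparison only and 2 with replicates 2 and 3 only. The interaction had 7 with DESeq2 and 11 with no count filter. Leaving out 1 library lowered the count in ML-792 vs DMSO to 5 (DMSO replicate 1) or 7 (DMSO replicate 2, ML-792 replicates 1 or 2), and in ML-792+DNR vs DNR to 8 (DNR replicate 1), 1 (DNR replicate 3), 14 (ML-792+DNR replicate 1) or 9 (ML-792+DNR replicate 2). Depth limits NFE2 and CEBPD most.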
